A study of Mus musculus with 9 samples.

Results

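Nascent transcription was compared between 15 and 30 min of doxycycline in mouse embryonic stem cells, using all bidirectional regions of the 3 libraries at 30 min and the 3 libraries at 15 min. These are 6 of the 9 libraries of the series, and the other 3 were made at 0 min without doxycycline. All cells, including those at 0 min, had the genotype Firre KO / Firre inducible transgene, so the libraries at both times carried the knockout and the transgene alike. Doxycycline was given at 1 ng/μL for 15 or 30 min, in medium with PD0325901, CHIR99021 and LIF. The labels do not name the promoter of the transgene, its place in the genome or the number of clones. No library received doxycycline without the transgene or carried the transgene alone. The comparison asks how transcription moved in the second 15 min of induction.

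Firre is an X-linked gene whose long non-coding RNA stays in the nucleus, binds the nuclear matrix protein hnRNPU and is known for contacts with genes on other chromosomes. PRO-seq labels RNA at the active site of engaged RNA polymerase, so it reads transcription itself and not stored RNA. Promoters and enhancers both start transcription in diverging directions, which is what a bidirectional region marks. Polymerase also runs on beyond the end of a gene before it leaves the DNA, so reads past a gene may come from that gene or from an enhancer placed there.

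The table held 174289 regions, read in windows of 600 bp of mm10, and 54299 passed edgeR's filter on low counts and were tested. Reads in the regions came to 4239213 to 5980366 per library at 15 min and 4279835 to 5398120 at 30 min. Levels are given as CPM, counts scaled to a common total of reads in regions, after TMM scaling, and 3 counts equal 0.502 to 0.708 CPM in these libraries. Library 3 at 15 min stood apart from the others on the second principal component, which held 13.9% of the variance (85.6 against -55.1 to 16.5). The summed level of 8 embryonic stem cell markers ran from 1600 to 1710 CPM over the 6 libraries, that of 3 fibroblast markers from 2.29 to 5.93 CPM, and no marker was called in the 5 cell types that had a tested one. The labels do not say that the replicates were separate cultures, so p-values measure only how these libraries vary. A change in CPM is relative to the other mouse regions, and fewer transcribing cells and fewer polymerases per cell cannot be told apart.

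Between 15 and 30 min 382 of 54299 tested regions changed at an adjusted p of 0.05 in edgeR's quasi-likelihood test with Benjamini-Hochberg adjustment (0.704%). Of these 116 were higher at 30 min (0.214%) and 266 were lower (0.490%). The median over all tested regions was -0.01 on the log2 scale, and 149 called regions changed by over 2-fold, 32 up and 117 down. The 3 libraries at 30 min lay wholly above or below the 3 at 15 min in CPM in 115 of the 116 higher and in all 266 lower regions. Over all tested regions such separation occurred in 7.80% upward and 8.17% downward. The calls lay in separate places, the 116 higher regions in 106 stretches and the 266 lower ones in 249, joining regions within 20 kb. Without library 3 at 15 min 247 regions were called higher (0.418%) and 301 lower (0.510%), and 92 of the 116 and 241 of the 266 were among them. Leaving out any 1 of the other 5 libraries left 154 to 222 calls, and 20 higher and 96 lower regions were called whichever of the 9 libraries was left out. With scaling factors from gene ends alone 60 were called higher and 272 lower, so that the higher share of calls went from 30.4% to 18.1%.

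**Figure D1:**
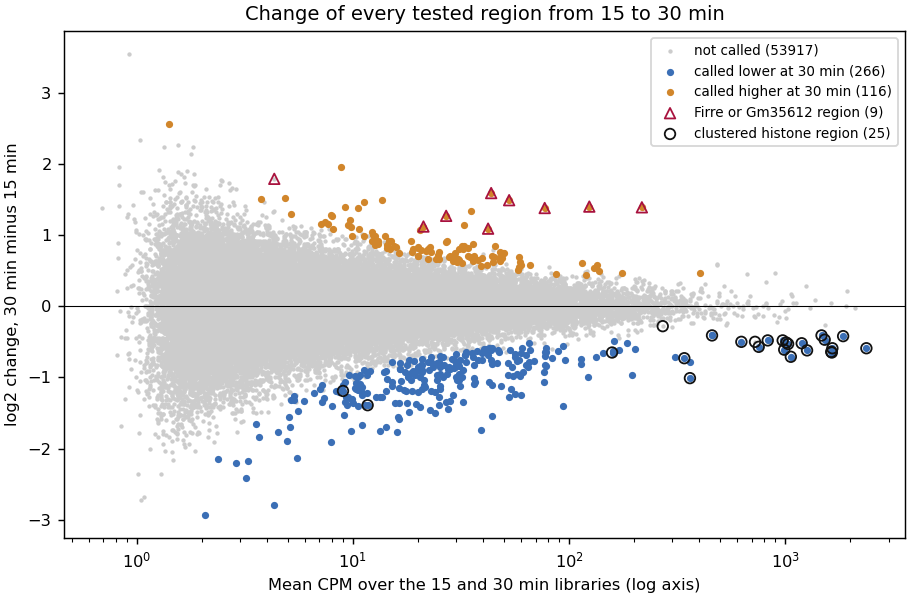
Change of each of the 54299 tested regions from 15 to 30 min (log2, vertical) against its mean level over the 6 libraries (CPM, log axis); grey points were not called, blue were called lower and orange higher, triangles mark Firre or Gm35612 regions and open circles regions at clustered histone genes. The triangles lie between 1.09 and 1.79, and the circles, most of them at high levels, between -1.39 and -0.28.

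Regions inside or at the end of Firre rose further in the second interval. The 8 regions within Firre, 7 of them tested, summed to 274, 338 and 274 CPM in libraries 1 to 3 at 15 min and to 791, 776 and 787 CPM at 30 min. Every library at 30 min was thus above every one at 15 min, and at 0 min the sum had been 2.48 to 4.92 CPM. The mean went from 295 ± 37.1 to 785 ± 7.33 CPM (SD, n = 3), a ratio of 2.66, and a two-sided exact permutation test gave p = 0.1, the smallest that 3 against 3 allows. The sum had gained 292 CPM from 0 to 15 min and gained 489 CPM from 15 to 30 min. Leaving out 1 library at a time kept the ratio between 2.56 and 2.86. Some windows in Firre overlap another, the most read one among them, so reads in shared bases may enter the sum more than once.

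All 7 tested Firre regions had a higher mean at 30 min, and 6 of them were called higher. The one with the most reads, at chrX:50569537-50570136 inside the gene and 6.72 kb from its nearer end, held 117, 143 and 98.9 CPM at 15 min and 320, 314 and 309 CPM at 30 min. The log2 change was 1.39 ± 0.12 (SE; edgeR adjusted p = 5.23e-07). Towards the other end of the gene, the region at chrX:50612518-50613117 had the largest called change within Firre. It held 18.5, 24.6 and 22.3 CPM at 15 min and 63.2, 68.6 and 64.5 CPM at 30 min, a log2 change of 1.59 ± 0.16 (edgeR adjusted p = 2.7e-06). The region closest to the far end, at chrX:50630647-50631246, did not pass the test. It held 0.333, 1.91 and 3.89 CPM at 15 min and 7.65, 5.78 and 6.4 CPM at 30 min, with a log2 change of 1.79 ± 0.46 (edgeR adjusted p = 0.0701). These regions sit along 1 gene and share their transcription, so they are not separate measurements of the induction.

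Gm35612, an uncharacterised gene that adjoins Firre at its 3′ end, rose as well. A window near the 3′ ends of both genes, 0.226 kb from that of Gm35612, held 42.3, 49.6 and 35.9 CPM at 15 min and 120, 106 and 109 CPM at 30 min (log2 1.38). Inside Gm35612, 4.79 kb past the 3′ end of Firre, the level went from 16.2, 17.3 and 13.8 CPM to 39.2, 37.8 and 37.9 CPM. That log2 change was 1.27 ± 0.17 (edgeR adjusted p = 0.000116), and a window 7.26 kb past the end gave 1.09 ± 0.17 (adjusted p = 0.000835). The strand counted is not given in the sources used here, so reads of Gm35612 and reads running on from Firre cannot be told apart. The place of the transgene is not given either. The positions of the Firre and Gm35612 windows are therefore those to which reads were assigned, and transcription may have taken place elsewhere. Including the Firre and Gm35612 windows, 9 of the 116 higher regions and 1 of the 266 lower ones lay on the X chromosome. Most of the 9 were these windows, since 108 of the 116 lay outside both genes. The share of all tested regions on this chromosome is not given here.

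Outside Firre and Gm35612, the called regions stood at 30 min near where they had been before doxycycline. The 108 other higher regions had median levels of 30.3, 18.6 and 30.7 CPM at 0, 15 and 30 min. Their median log2 change was -0.78 from 0 to 15 min and 0.80 from 15 to 30 min. The 266 lower regions had medians of 16.8, 34.9 and 17.3 CPM, with log2 changes of 1.02 and then -0.96. Both intervals use the same 15 min libraries, so choosing regions by the second interval favours an opposite change in the first, and the values are given side by side as a description. Tested on its own, the difference between the second and the first change passed at 2022 regions (3.72%), 924 of them with a more positive second change (1.70%) and 1098 with a more negative one (2.02%). These counts became 251 and 596 without library 1 at 15 min, 330 and 438 without library 2, 1777 and 1453 without library 3, and 564 and 697 without library 2 at 30 min. With scaling factors from gene ends alone they became 416 and 1854.

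**Figure D2:**
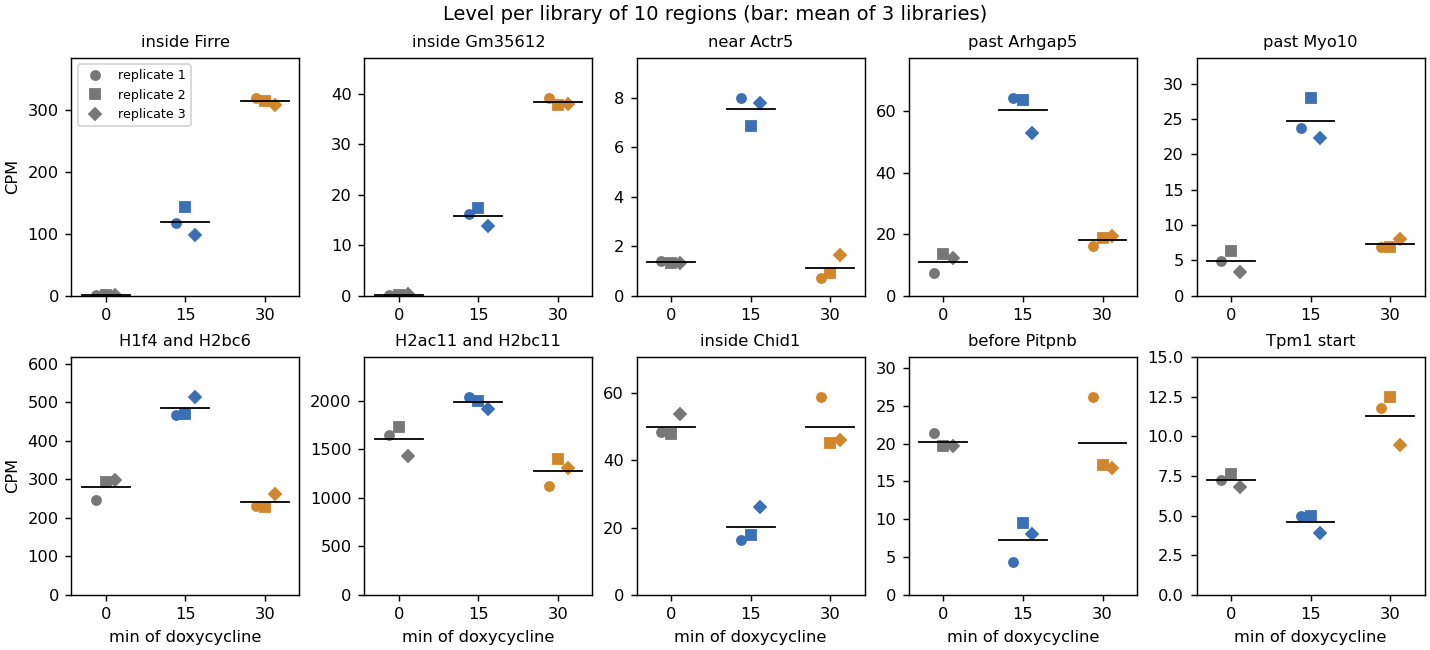
CPM (vertical, from 0) at 0, 15 and 30 min of doxycycline for 10 regions; symbols are libraries 1 to 3 of each time and bars their means. The Firre and Gm35612 regions go up at each time, the regions near Actr5, Arhgap5, Myo10 and the histone genes are highest at 15 min, and the Chid1, Pitpnb and Tpm1 regions are lowest at 15 min.

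Of the 266 lower regions, 157 lay 1 to 15 kb past the 3′ end of an annotated gene, outside any gene or inside another one. Outside genes, 40 of 1539 regions centred 1 to 5 kb past the nearest 3′ end were lower at 30 min (2.60%), and 39 of 2190 at 5 to 15 kb (1.78%). Before the nearest 5′ end the counts were 13 of 1669 (0.779%) and 5 of 2353 (0.212%) at the same distances. Beyond 15 kb on the 3′ side 2 of 1847 regions up to 50 kb and 0 of 1669 farther out were lower, by edgeR's adjusted p. Higher calls past a 3′ end numbered 5 at 1 to 5 kb (0.325%) and 2 at 5 to 15 kb (0.0913%), and 17 lay 1 to 5 kb before a 5′ end (1.02%). The median change of all regions past a 3′ end was -0.06 and -0.07 in the nearer and the farther class, against -0.07 for all regions outside genes. The 3729 regions 1 to 15 kb past a 3′ end together held 54050, 57600 and 52990 CPM at 15 min and 52940, 51130 and 53300 CPM at 30 min, groups that overlap (two-sided exact permutation p = 0.2). The 79 lower calls among them became 88 without library 3 at 15 min and 32 to 46 without any 1 of the other 5 libraries.

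**Figure D3:**
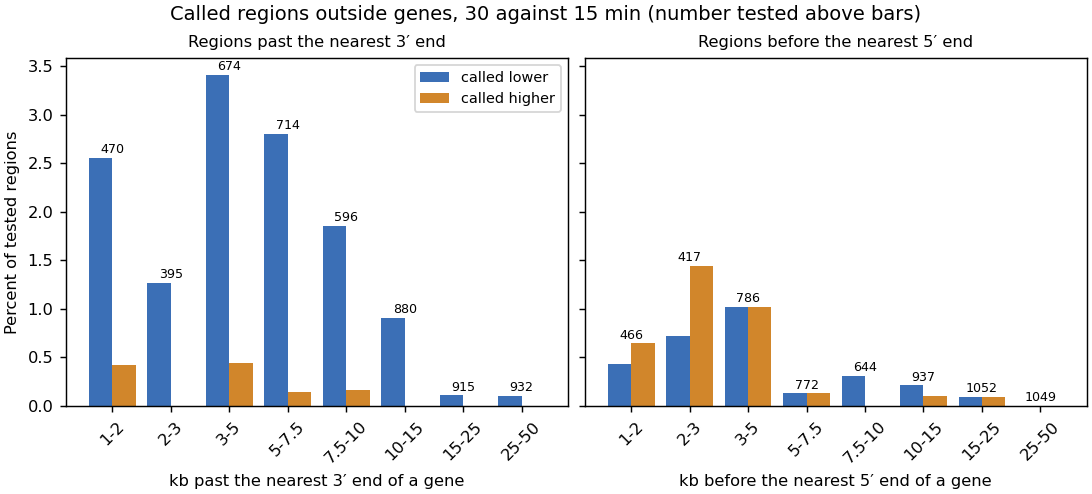
Percent of tested regions outside genes that were called lower (blue) or higher (orange) at 30 min against 15 min, by distance in kb past the nearest 3′ end (left) or before the nearest 5′ end (right); numbers above the bars are regions tested. On the left the blue bars run from 0.909% to 3.41% out to 15 kb and are at 0.109% and 0.107% beyond, while the tallest bar on the right is 1.44%.

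The same position marked lower regions that lay inside another gene. Of 4026 regions inside one gene and 1 to 15 kb past the 3′ end of another, 56 were lower (1.39%), against 28 of 16055 other regions inside genes (0.174%). Outside genes the corresponding counts, with any 3′ end within 15 kb, were 101 of 4898 (2.06%) and 29 of 14309 (0.203%). Higher calls were also more frequent at this position, though less so. They came to 17 (0.422%) against 20 (0.125%) inside genes and 13 (0.265%) against 21 (0.147%) outside. Regions past a 3′ end also held more reads, with median counts of 30.0 against 22.2 inside genes and 25.2 against 22.2 outside. The 157 lower regions had changes from -2.42 to -0.52 and a median of -0.97. The 155 genes whose ends they followed had 117 tested regions at their starts. Of these 117 start regions 1 was called lower and 0 were called higher, and their median change was -0.01. Of all tested gene-end regions nearest a 5′ end 0.266% were lower and 0.168% higher. At such shares 117 regions hold few calls or none, so this count does not show that the starts were unchanged.

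A region past Arhgap5 shows the pattern at high counts. At chr12:52580797-52581396, 9.12 kb past the 3′ end, it held 64.3, 63.7 and 52.7 CPM at 15 min and 16, 18.8 and 19.4 CPM at 30 min. At 0 min it had held 7.26, 13.7 and 12.1 CPM, so the 15 min libraries were above both other times. The log2 change was -1.74 ± 0.18 (edgeR adjusted p = 2.7e-06), whereas the region at the start of Arhgap5 changed by -0.20 (adjusted p = 0.754). Past Myo10, which encodes the myosin of filopodia, a region at 10.1 kb held 23.7, 28 and 22.3 CPM at 15 min and 6.92, 6.9 and 8.06 CPM at 30 min. Its log2 change was -1.76 ± 0.21 (edgeR adjusted p = 3.42e-05) and that at the start of Myo10 was 0.11 (adjusted p = 0.913). A region 8.96 kb past Far1, a fatty acyl-CoA reductase gene of peroxisomes, changed by -1.75 ± 0.28 (adjusted p = 0.00111), and the start of Far1 by 0.49 (adjusted p = 0.465).

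Several of the lower regions took the name of one gene but lay past another. The region 12.5 kb before Slc45a3, at chr1:131950143-131950742, was 14.1 kb past the end of Nucks1, a gene for a DNA-binding nuclear protein. It held 7.33, 12.2 and 7.53 CPM at 15 min and 2, 2.42 and 1.66 CPM at 30 min (log2 -2.13 ± 0.33; edgeR adjusted p = 0.000722). A region within Dupd1 was 8.74 kb past Kat6b, a histone acetyltransferase gene, and held 61.3, 78.2 and 56.4 CPM at 15 min and 23, 19.8 and 24.9 CPM at 30 min. Its log2 change was -1.54 ± 0.19 (edgeR adjusted p = 3.54e-05), and at 30 min it was still above 0 min (log2 1.63, adjusted p = 0.000331). The region near St14, a membrane serine protease gene, was 10.8 kb past Aplp2 and changed by -1.69. A region within Ripor3 was 3.45 kb past Ptpn1, a tyrosine phosphatase gene, and changed by -1.89, a call lost without library 2 at 15 min or libraries 2 or 3 at 30 min.

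The largest fall among the named regions was near Actr5, which encodes an actin-related subunit of the INO80 chromatin remodeller. The region, at chr2:158648389-158648988 and 9.48 kb from the nearer end of the gene, held 8, 6.86 and 7.77 CPM at 15 min and 0.729, 0.932 and 1.66 CPM at 30 min. With 1.31 to 1.42 CPM at 0 min it was high at 15 min only. The log2 change was -2.79 ± 0.38 (edgeR adjusted p = 0.00014). A region 2.17 kb from Rrp12, a ribosome maturation gene, changed by -1.91 ± 0.27 (adjusted p = 0.000239) and one 7.54 kb from Lamc1, a laminin gene, by -1.76 ± 0.38 (adjusted p = 0.0196). Strand was not used here for these 3 genes, so the side is not known. The Lamc1 call was lost without library 1 or 2 at 15 min or any 1 of the libraries at 30 min.

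Inside Eml6, a gene of the microtubule-associated EML family, a region 18.8 kb from the nearer end held 21.8, 24.8 and 15.3 CPM at 15 min and 4.37, 6.52 and 7.82 CPM at 30 min. Its log2 change was -1.75 ± 0.28 (edgeR adjusted p = 0.000926), and it had risen by 3.45 from 0 to 15 min. Of the other named regions inside genes, one in Gm32525 changed by -1.67 (adjusted p = 0.00147). One in Capn12, a calpain protease gene, changed by -1.69 (adjusted p = 0.047), and that call was lost without any 1 of the 6 libraries.

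By broad position, lower calls were most frequent outside genes, with 130 of 19207 regions (0.677%), against 84 of 20081 inside genes (0.418%) and 52 of 15011 at gene ends (0.346%). Higher calls came to 34, 37 and 45 in the same order, or 0.177%, 0.184% and 0.300%. The median change was -0.07 outside genes, -0.01 inside genes and 0.04 at gene ends. Shares of reads overlapped between the times. Gene ends took 45.1%, 42.7% and 47.2% of reads in regions at 15 min and 44.4%, 45.8% and 45.4% at 30 min, and regions outside genes 26.6%, 27.9% and 24.9% and then 26.2%, 25.4% and 26.0%. These groups overlap, and the exact permutation p was 0.9 for gene ends, 0.5 inside genes and 0.6 outside (adjusted p = 0.9 over the 3).

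Regions at clustered histone genes fell together. These genes encode the core and linker histones that package newly made DNA, lie in clusters on chromosomes 13 and 3, and give messenger RNA that ends in a stem-loop without a poly(A) tail. All 25 tested regions within 1 kb of their ends, serving 40 genes, had a negative change, and 22 were called lower and 0 higher. Their median was -0.57, with a range from -1.39 to -0.28, against 0.04 over all regions at gene ends. Together they held 30150, 27950 and 28170 CPM at 15 min and 16990, 21120 and 20780 CPM at 30 min. All 3 libraries at 30 min were below all 3 at 15 min, at a ratio of 0.683 (two-sided exact permutation p = 0.1), and at 0 min the sum was 20260 to 24660 CPM. Without library 1 at 30 min 12 of the regions were called, without library 1 at 15 min 14, without library 3 at 15 min 23, and 10 were called whichever library was left out. Many of these genes are near copies of each other, so their values are uncertain where reads could be placed on several of them, and the handling of such reads is not given in the sources used here.

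Among linker histone genes, the region at the 3′ end of H1f4, which is also within 1 kb of H2bc6, held 466, 470 and 514 CPM at 15 min and 229, 228 and 262 CPM at 30 min. It had held 247, 293 and 299 CPM at 0 min. The log2 change was -1.01 ± 0.10 (edgeR adjusted p = 1.91e-06), the smallest p among the histone regions. At H1f1 the level went from 475, 405 and 396 CPM to 242, 233 and 292 CPM (log2 -0.73 ± 0.11; adjusted p = 0.000307). Both regions had risen from 0 to 15 min, by 0.79 and 0.77.

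Among core histone genes, the region shared by the divergent pair H2ac11 and H2bc11 held 2040, 2000 and 1910 CPM at 15 min and 1120, 1400 and 1310 CPM at 30 min. Its change from 15 min was -0.64 ± 0.09 (edgeR adjusted p = 0.000133). It was the only clustered histone region to pass as below its 0 min level at 30 min (log2 -0.33, edgeR adjusted p = 0.0438). At H3c11 the level went from 2050, 2020 and 1930 CPM to 1190, 1360 and 1280 CPM (log2 -0.65 ± 0.08; adjusted p = 3.42e-05). On chromosome 3 the region at H2ac19 went from 2030, 2060 and 2260 CPM to 1490, 1640 and 1610 CPM, a log2 change of -0.42 ± 0.07 (adjusted p = 0.00227). The largest change was at the little-read pair H2ac1 and H2bc1, from 21, 16.4 and 13.1 CPM to 5.47, 6.71 and 7.35 CPM (log2 -1.39 ± 0.23; adjusted p = 0.00142). The 3 regions that did not pass were at H4c11, at H3c8 with H2ac10, and at H2bc21 with H2ac20 and H2ac21 (adjusted p = 0.137, 0.0555 and 0.389).

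The 7 tested regions at histone genes outside the clusters (H1f0, H1f10, H2ax, H2az1, H2az2, H3f3a and H3f3c) gave 0 calls in edgeR. Of all tested regions at gene ends 0.346% were called lower, so 0 calls among 7 does not show that these were unchanged. Of the 7 changes 5 were below 0. Their median was -0.03, and the lowest was H1f0 at -0.31 ± 0.11 (adjusted p = 0.27). Their summed level was 1432, 1422 and 1588 CPM at 15 min and 1204, 1443 and 1379 CPM at 30 min, groups that overlap. The ratio of the means was 0.906 (two-sided exact permutation p = 0.3). In the stretch of chromosome 13 that holds the histone clusters, 3 of the 109 other tested regions were lower, by -0.81, -0.97 and -0.84. This share was larger than the 0.490% of all tested regions and the 0.677% of those outside genes. The genes nearest to these 3 regions were the histone genes H2bc14 and H4c17.

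**Figure D4:**
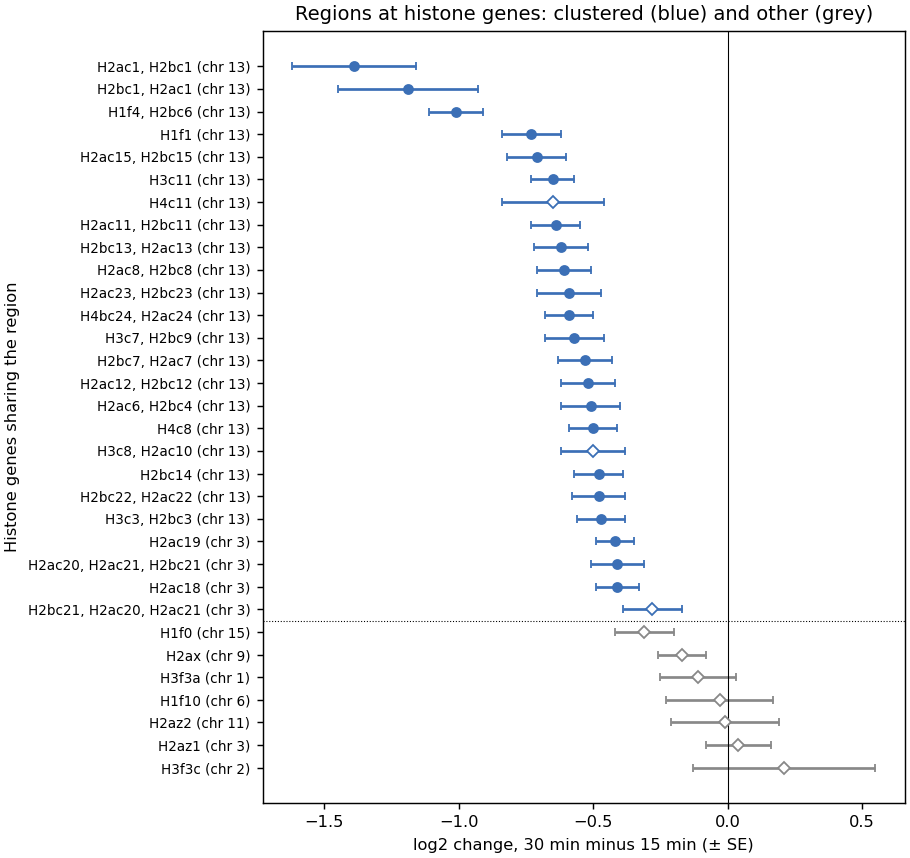
log2 change from 15 to 30 min with its SE for regions at clustered histone genes (blue) and at other histone genes (grey), labelled by the histone genes within 1 kb; filled points were called lower. All 25 blue points are below 0, and the grey points run from -0.31 to 0.21.

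The promoters of 3 fallen histone genes and 1 risen gene are shown as the 250 bases before the annotated start, from RefSeq on GRCm38.p6, on the gene's own strand, to show which motifs they hold. Capitals mark TATAAA, the core of the TATA box, and CCAAT, each on either strand (TTTATA and ATTGG on the other). They lie at chr13:23763418-23763667 for H1f1 (+), chr13:21783398-21783647 for H3c11 (-), chr13:22042950-22043199 for H2ac11 (-) and chr9:67049214-67049463 for Tpm1 (-).
H1f1: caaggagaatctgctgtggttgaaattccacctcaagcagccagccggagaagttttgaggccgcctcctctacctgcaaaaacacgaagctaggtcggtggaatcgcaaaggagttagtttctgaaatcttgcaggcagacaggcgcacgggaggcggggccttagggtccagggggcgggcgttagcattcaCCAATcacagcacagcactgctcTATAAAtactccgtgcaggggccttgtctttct
H3c11: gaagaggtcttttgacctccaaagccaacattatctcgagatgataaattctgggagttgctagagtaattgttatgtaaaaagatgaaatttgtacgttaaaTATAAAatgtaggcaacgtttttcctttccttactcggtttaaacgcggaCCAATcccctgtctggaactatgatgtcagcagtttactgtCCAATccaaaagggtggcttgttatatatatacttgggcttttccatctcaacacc
H2ac11: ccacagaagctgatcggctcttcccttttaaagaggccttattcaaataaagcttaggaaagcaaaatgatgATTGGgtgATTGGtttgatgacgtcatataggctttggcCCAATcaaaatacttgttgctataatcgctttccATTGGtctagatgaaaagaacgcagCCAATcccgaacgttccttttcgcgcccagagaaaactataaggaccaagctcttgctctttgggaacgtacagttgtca
Tpm1: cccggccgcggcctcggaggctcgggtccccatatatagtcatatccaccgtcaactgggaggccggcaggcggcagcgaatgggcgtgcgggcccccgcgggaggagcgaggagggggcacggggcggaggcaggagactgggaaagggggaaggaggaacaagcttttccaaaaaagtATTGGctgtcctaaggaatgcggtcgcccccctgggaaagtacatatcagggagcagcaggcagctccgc

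In H1f1 the TATAAA begins 33 bases before the start, whereas in H3c11 the only TATAAA begins 147 bases before it. H2ac11 holds CCAAT 5 times and no TATAAA, and Tpm1 holds CCAAT once. Over the 250 bases, CCAAT stood in 32 of the 33 matched promoters of clustered histone genes whose region was called lower (97.0%) and in 3583 of all 9749 matched promoters with a tested region within 1 kb of the start (36.8%). TATAAA stood in 15 of the 33 (45.5%) and in 569 of the 9749 (5.84%). Of the 14 promoters of other genes called lower, 5 held CCAAT (35.7%) and 0 held TATAAA, and of the 13 called higher 9 held CCAAT (69.2%) and 0 TATAAA. The GC box GGGCGG stood in 8 of the 33 (24.2%) and in 60.4% of all. The E-box CACGTG stood in 0 of the 33 and 8.78% of all, and the AP-1 site TGACTCA in 0 and 2.78%. The cyclic AMP response element TGACGTCA stood in 3 of the 33 (9.09%) and 2.80% of all, and the NRF1 site GCGCATGC in 0 and 4.79%. Neighbouring histone genes share windows and are near copies, so these promoters are not independent. Either strand was searched throughout, and the matches describe letters in this window and not bound factors.

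Of the 52 lower regions at gene ends 27 were nearest a 5′ end, 18 a 3′ end and 7 an end of unknown side, or 0.266%, 1.03% and 0.224% of those tested. Higher calls at gene ends came to 17, 19 and 9 in the same order, or 0.168%, 1.09% and 0.288%. The larger share at 3′ ends was thus seen in both directions. The 30 lower regions at gene ends outside the histone clusters divided into 9, 15 and 6. At Xrra1, 0.599 kb from the 3′ end, the level went from 118, 144 and 145 CPM at 15 min to 50.8, 50.3 and 52.9 CPM at 30 min. Its log2 change was -1.40 ± 0.12 (edgeR adjusted p = 5.23e-07), the smallest p among the lower regions named, and the start of Xrra1 changed by -0.53 (adjusted p = 0.405). A region between the uncharacterised genes Gm32534 and Gm32480 went from 38.2, 36 and 25.7 CPM to 13.1, 10.8 and 12.6 CPM (log2 -1.46 ± 0.20; adjusted p = 0.00014). At the 3′ end of Zan, which encodes the sperm protein zonadhesin, the level went from 35, 38.9 and 34.7 CPM to 17.3, 10.3 and 14 CPM (log2 -1.39 ± 0.20; adjusted p = 0.000298). Regions at the 3′ ends of Olfr543, Gm40260, Dync1i1, Sfrp5 and Ccdc114 changed by -1.36, -1.36, -1.24, -1.16 and -1.11. Sfrp5 encodes a secreted WNT inhibitor and Dync1i1 a dynein chain, and the last 3 calls were each lost without 4 or more of the 9 libraries in turn.

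Among regions outside Firre with at least 20 counts on average and groups that did not overlap, the largest rise was in Gm34121, an uncharacterised gene, in which a region at chr7:56044829-56045428 held 2.67, 4.19 and 4.13 CPM at 15 min and 16.2, 15.3 and 10.2 CPM at 30 min. It had held 15.2, 11.6 and 15.7 CPM at 0 min, so 15 min was the low time. The log2 change was 1.95 ± 0.26 (edgeR adjusted p = 0.000146), while the region at the start of Gm34121 changed by 0.08 (adjusted p = 0.91). A region inside Chid1, a gene for a secreted chitinase-domain protein, went from 16.3, 17.9 and 26 CPM to 59, 45.1 and 46.2 CPM, against 47.9 to 53.8 CPM at 0 min. Its log2 change was 1.34 ± 0.17 (edgeR adjusted p = 5.19e-05).

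Several other named rises lay ahead of a 5′ end, some of them also past the 3′ end of another gene. The one 5.32 kb before Pitpnb, a phosphatidylinositol transfer protein gene, went from 4.33, 9.53 and 8.02 CPM to 26.2, 17.1 and 16.8 CPM (log2 1.49 ± 0.24; edgeR adjusted p = 0.00139). The one 2.06 kb before Arf1, a GTPase gene of Golgi traffic, changed by 1.39 ± 0.27 (adjusted p = 0.0074), a call lost without library 1 at 15 min. The one 4.73 kb before Ifnar1, a type I interferon receptor gene, lay 10.2 kb past A930006K02Rik and changed by 1.21 ± 0.23 (adjusted p = 0.00713), a call lost without library 1 at 15 min or library 2 at 30 min. Regions 4.95 kb before Ubxn1 and 2.36 kb before Gopc changed by 1.52 and 1.30 (adjusted p = 0.0228 and 0.0342). The former also lay 13.4 kb past Uqcc3. The Ubxn1 call was lost without any 1 of 5 libraries and the Gopc call without any 1 of 6. The starts of Pitpnb, Arf1, Ifnar1, Ubxn1 and Gopc changed by 0.06, 0.37, -0.12, 0.16 and -0.06, none of them called. Inside Ghdc, 11.7 kb past the 3′ end of Stat5b, a region changed by 1.47 ± 0.22 (adjusted p = 0.000549).

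At gene ends, under the same limits on counts and overlap, the largest rise outside Firre was at the 5′ end of Tpm1, which encodes the actin-binding protein tropomyosin. It held 5, 4.96 and 3.89 CPM at 15 min and 11.8, 12.5 and 9.48 CPM at 30 min, with 6.82 to 7.61 CPM at 0 min. The log2 change was 1.28 ± 0.24 (edgeR adjusted p = 0.00689), a call lost without library 2 at 30 min. At the 3′ end of Terf2ip, a gene for a telomere protein, the level went from 4.83, 4.96 and 4.13 CPM to 8.75, 13.2 and 12.1 CPM (log2 1.27 ± 0.26; adjusted p = 0.0101), a call lost without any 1 of 3 libraries. At Sgk2, a kinase gene, it went from 16.8, 22.5 and 17.2 CPM to 38.8, 33.2 and 33.4 CPM (log2 0.90 ± 0.16; adjusted p = 0.00277), and this call held whichever library was left out. Near Lrrc56 and the GTPase gene Hras it went from 28, 19.8 and 20.9 CPM to 45.5, 44.5 and 33.7 CPM (log2 0.84 ± 0.17; adjusted p = 0.00843), also lost without any 1 of 3 libraries. Actr1a (dynactin), Ap3m2 (a vesicle adaptor), Rfc1 (the clamp loader of DNA replication), Rita1, Tm2d2, Ubxn10 and Gm10822 rose by 0.86 to 1.15. Each of these 7 calls was lost without any 1 of 3 or more libraries, and Actr1a, Rfc1, Tm2d2, Ubxn10 and Gm10822 were not called with scaling factors from gene ends alone.

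Among the regions named, the difference between both intervals was most negative at the window near the ends of Firre and Gm35612 (-6.09), and it was -5.28 at the most read Firre region, whose log2 rises were 6.67 and 1.39. The window had held 0, 0.448 and 0.262 CPM at 0 min, fewer than 3 counts per library, so its first log2 change rests on near-zero counts. In CPM the summed Firre level gained 292 in the first interval and 489 in the second. Counting Firre and Gm35612 apart, the difference in log2 change was most negative at the regions of Actr5, Eml6, Slc45a3 and Dupd1 described above. By the same rule it was most positive at Gm34121, Arf1, Pitpnb, Ghdc, Rpia and Rabac1. The regions 1.87 kb before Rpia, a pentose phosphate gene, and 0.838 kb from the 3′ end of Rabac1, a Golgi protein gene, had second changes of 1.34 and 1.11 that did not pass (edgeR adjusted p = 0.054 and 0.152). Their first changes were -1.42 and -1.64.

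Few genes of named pathways and cell states were called at their gene ends. Of 553 genes in 36 lists, 411 had a tested region within 1 kb of an end. Of these 2 were called higher and 10 lower, against 46 (0.336%) and 70 (0.511%) of all 13703 genes tested in this way. All 10 lower genes were replication-dependent histones, and 0 of the other 401 tested genes were called lower by edgeR. The 70 lower genes among all those tested include clustered histone genes too. At these shares short lists hold few calls or none, so 0 calls in a list does not show that its genes were unchanged. The 11 tested genes of the histone list, which holds the unclustered H1f0 too, share 7 regions. The lower count became 5 without library 1 at 30 min and 6 without library 1 at 15 min, and the higher count 9 without library 3 at 15 min and 0 without library 2 at 30 min. List medians lay within 0.2 of 0 for 31 of the 35 lists with a tested gene, beside a median of 0.04 over all genes. The exceptions were the histones at -0.51, YAP and SRF targets at 0.32, and the thinly measured mesoderm and fibroblast lists, of 4 tested genes each, at 0.59 and 0.37.

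The higher list members were Tpm1, a target of the actin-linked factor SRF, and Nfkb1, which encodes the p105 and p50 subunits of NF-kB. A region 0.921 kb from an end of Nfkb1 went from 23.2, 22.5 and 23.3 CPM at 15 min to 37.9, 36.2 and 36.3 CPM at 30 min. Its log2 change was 0.68 ± 0.15 (edgeR adjusted p = 0.0255), which did not pass with scaling factors from gene ends alone (adjusted p = 0.074) or without any 1 of 5 libraries. The other 8 tested members of its list of NF-kB and interferon targets were not called. Among pluripotency genes, Nanog changed by 0.11, Sox2 by -0.09 and Klf4 by 0.06, and 0 of the 15 naive, 9 core, and 9 formative and primed genes tested were called. Immediate early genes, which answer signals within minutes, gave 0 calls among 18, with Fos at -0.12 and Egr1 at 0.02. At Gadd45b, a stress-response gene, a region 0.471 kb from the 3′ end went from 98.2 to 137 CPM, with 224 CPM at 0 min. Its log2 change of 0.48 ± 0.12 missed the threshold (edgeR adjusted p = 0.0507), and its adjusted p ran from 0.00493 to 0.344 over the other settings. The region at the start of Gadd45b changed by 0.39 (edgeR adjusted p = 0.241). Of the 31 tested genes of polymerase elongation and termination 0 were called, with changes from -0.36 to 0.31, and 0 of 13 Firre-binding and nuclear architecture genes. Of the 3 tested genes reported to be contacted by Firre, 0 were called, with Ppp1r10 at -0.19 ± 0.10. Slc25a12, a mitochondrial carrier gene in this list, went from 26.3, 23.6 and 30.6 CPM at 15 min to 34.8, 44.2 and 36.5 CPM at 30 min. Its groups did not overlap, but its log2 change of 0.53 ± 0.17 did not pass (edgeR adjusted p = 0.214).

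**Figure D5:**
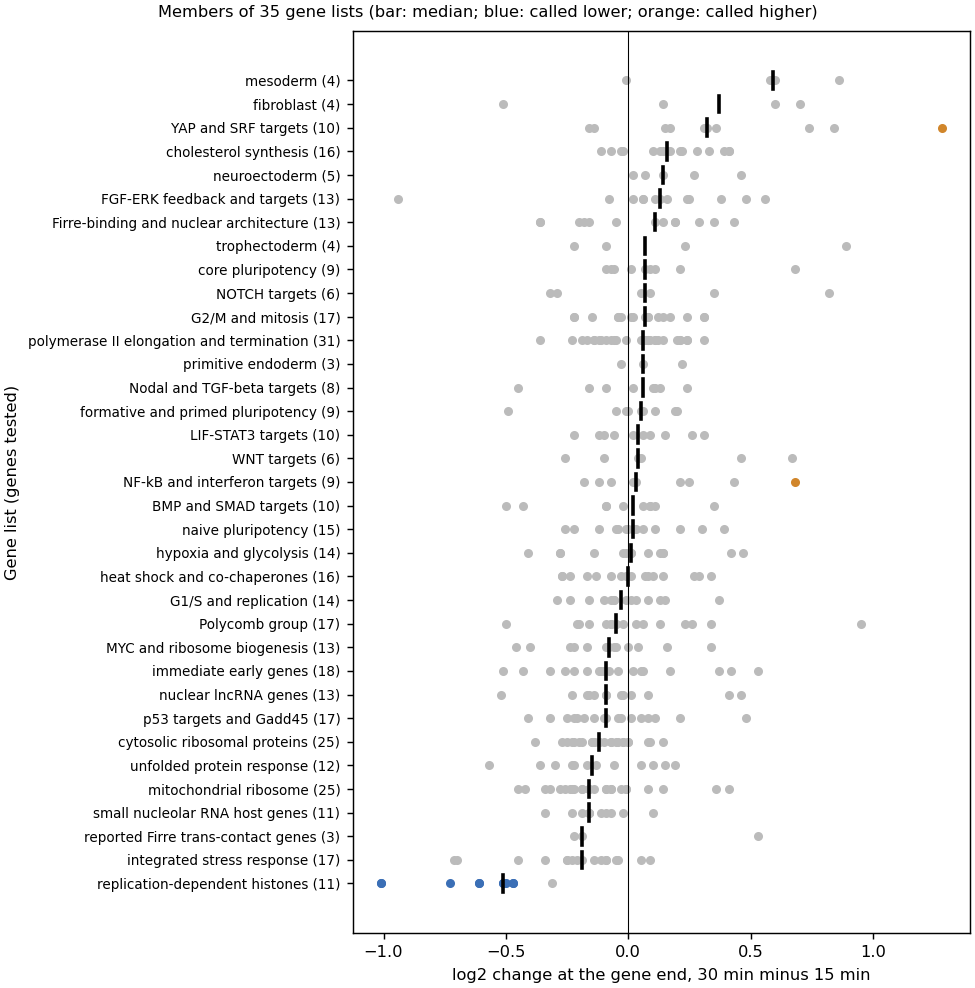
log2 change from 15 to 30 min at the gene end for each tested member of 35 gene lists, ordered by median (bar); the number of tested genes stands after each name. Blue points, called lower, occur in the histone list alone, and the orange points, called higher, are Tpm1 and Nfkb1.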

How the data were processed

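The authors deposited read counts of each bidirectional region in 9 PRO-seq libraries, with region positions (other values: chromosome, start and end) on mm10. Per the submitters' processing notes HISAT2, featureCounts and DESeq2 1.26.0 were used; their settings and the strand counted are not given in the sources used here. The nuclei were mixed with 1% Drosophila nuclei per the labels' protocols, and their reads were not used here.

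All 9 libraries entered 1 edgeR 4.0.16 quasi-likelihood fit (R 4.3.3, limma 3.58.1, TMM scaling, default filter, 119990 regions removed, time as factor), with p-values adjusted over 54299 regions and called at 0.05. The steps were checked on simulated counts. SEs of log2 changes were taken from the F statistics (change over root F). The second change minus the first was a further contrast. A region at a gene end was centred within 1 kb of an end of one of 35108 RefSeq genes (GRCm38); strand was known for 27025 of them. Regions named had at least 20 counts on average and groups that did not overlap: the 12 largest changes each way, the same at gene ends, 6 each way for the change of step, and all Firre regions. Members, lists and rules were chosen with earlier results of these data known; strand-based positions, the clustered histone set, motifs and Gm35612 were added after seeing the data. Alternatives were other scalings, filters, DESeq2 1.42.0, a replicate block, fewer libraries and windows without overlap (50841 of 174289 windows overlapped another). Replicates differed by 2.26 to 3.76 times sampling noise (chi-square per degree of freedom). Motifs were searched on both strands of the promoters, with overlaps allowed.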

Additional observations from a re-analysis of the deposited data

How the results depend on the processing

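Directions held for all 94 named regions where they were called, over 9 alternatives and 9 left-out libraries. Of their values 1533 stayed on their side of the threshold, 112 dropped below it, 22 came above it and 0 reversed, while DESeq2 gave no adjusted p for 14. The values that stayed include those of named regions that were not called and remained so, so they do not measure how often a call was kept. Counts of higher calls depended most on scaling and library. With factors from gene ends the median inside genes became -0.06 and higher calls became 60 in all, 21 at gene ends, 21 inside genes, 18 outside, 4 past 3′ ends and 1 in the lists, and the change of step gave 416 higher and 1854 lower. The DESeq2 Wald test gave 69 higher at gene ends, 62 inside genes, 11 past 3′ ends and 4 list members. With 500 bp for gene ends, 28 were higher there and their share of reads differed by -0.0843 points, a reversed sign. Leaving out 1 library at a time gave 154 to 548 calls, 31 to 247 higher and 120 to 301 lower. It gave 10 to 130 higher and 31 to 55 lower at gene ends, 12 to 71 and 30 to 93 inside genes, 7 to 46 and 56 to 155 outside. Past 3′ ends it gave 0 to 10 higher and 32 to 88 lower, in the lists 0 to 9 and 5 to 10, and for the change of step 251 to 1777 and 438 to 1453. The called histone regions ran from 12 to 24. Medians ran from 0.01 to 0.12 at gene ends, -0.02 to 0.03 inside genes and -0.10 to -0.02 outside, and differences in read share from -0.917 to 1.35 points at gene ends, 0.0321 to 0.798 inside and -1.38 to 0.119 outside. The share at gene ends reversed without library 2 at 15 min (-0.917) or at 30 min (-0.0779), and that outside genes without library 2 at 15 min (0.119). With the replicate number as a block 421 regions were called, 133 higher and 288 lower, and 23 histone regions. Same-numbered libraries at 15 and 30 min had deviations correlating at 0.028, -0.048 and 0.011. The values were 0.044, 0.175 and 0.101 for 0 and 15 min, and -0.002, -0.034 and 0.025 for 0 and 30 min. Such values do not settle whether same-numbered libraries were paired. The cause of the differences between settings was not tested. Regions with few reads have wide errors, and those removed by the filter were not tested.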

Other observations

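Windows over other classes of RNA gene gave few calls, and their numbers are too small to set apart from the 0.214% higher and 0.490% lower of all tested regions. Of 172 tested windows at tRNA genes 1 was called higher and 0 lower (edgeR), with a median log2 change of 0.20, above the -0.01 of all tested regions. At 23 windows over snRNA genes and 16 over snoRNA genes 0 were called, with medians of 0.01 and -0.04, and at 80 windows over miRNA genes 1 was called higher, with a median of 0.05. Over all tested regions 5230 had an unadjusted p under 0.05.

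Genes of the mitochondrial ribosome had a median of -0.16 over 25 tested, and those of the cytosolic ribosome -0.12 over 25, with 0 called in either list. The integrated stress response list had a median of -0.19 over 17 tested genes, again with 0 called.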
